A study of Arabidopsis thaliana with 48 samples.

Results

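The genes described here are those whose transcripts stood highest 1 h after lights on (ZT1) in well-watered wild-type Arabidopsis. They were chosen from the 8 libraries of wild type with normal watering. A gene was kept if its mean at ZT1 was at least 20 CPM (its count scaled to the library total), which held for 8259 of the 26988 genes in the deposited table. Genes were ranked by the log2 ratio of ZT1 to the highest of the other times, with 1 CPM added to each level, and the top 150 were taken. The clock genes CCA1, LHY, PRR9, RVE8 and RVE1 were then left out, which left 145 morning genes. All wild-type values with normal watering are therefore a description, and tests were made only between groups that did not enter the choice.

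RNA came from the aerial parts of 3-week-old plants of the Columbia ecotype in 48 libraries, 2 for each of 24 groups. The groups combine 3 genotypes (wild type, gi-2 and aba1-6), 2 watering regimes and 4 harvest times (ZT1, ZT8, ZT12 and ZT16). gi-2 is a mutant of GIGANTEA, and aba1-6 is a mutant of ABA1, the zeaxanthin epoxidase that serves the synthesis of abscisic acid (ABA). Normal watering held soil water at 80 to 90% of its relative content, and drought held it at 30% from soon after germination in every genotype. Plants grew in days of 8 h light. ZT1 and ZT8 belong to the last such day, and ZT12 and ZT16 to light added after it, so no harvest of this design fell in darkness. Each library pooled about 50 seedlings from 3 pots.

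Morning expression in plants is set by the circadian clock together with light at dawn. The factors CCA1 and LHY, related to the REVEILLE factors, peak around dawn. The LNK proteins, transcriptional co-activators that work with REVEILLE factors, follow, and GIGANTEA, an evening-phased protein, takes part in clock timing, photoperiodic flowering and ABA-dependent drought responses. Many genes for chlorophyll, carotenoids and light-harvesting proteins are also switched on in the morning.

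Library totals ranged from 1920012 counts (wild type, normal watering, ZT12, replicate 1) to 26925706. The next smallest, at 2289812 counts, was wild type, drought, ZT16, replicate 2. It enters every ZT16 comparison of a mutant with wild type under drought. The summed green-tissue markers lay between 21060 and 41650 CPM. Of the root markers, NRT2.1 lay between 0 and 26.3 CPM PYK10 between 364 and 1309 CPM and SHR between 7.05 and 18.8 CPM, with sums of 379 to 1331 CPM, and TIP2-3 and PER3 were not matched. The guard cell markers summed to between 45.0 and 85.8 CPM. GI itself was measured in gi-2, at 133 to 167 CPM at ZT8 against 260.0 to 310.0 CPM in wild type, and at 51.5 to 55.3 CPM at ZT16 against 11.6 to 23.4 CPM. The library gi-2, drought, ZT16, replicate 2 carries gi-2 in its title and wild type in its genotype tag. It was placed by its title. In whole aerial tissue, fewer cells of a type and less RNA per cell cannot be told apart.

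Of the 145 morning genes, 141 could be matched to 1 locus of the TAIR10.1 annotation. A script looked for short promoter motifs on both strands of the 500 bases before their annotated starts. The G-box, CACGTG, which is the core site of many light-related bHLH and bZIP factors, was present in 27 (19.15%) of these 141 windows and in 9.409% of the 26231 windows of all annotated genes with a name in the table. The evening element, AAAATATCT, was present in 8 (5.674%) against 4.457%, and the CCA1-binding site, AAAAATCT, in 20 (14.18%) against 12.6%. The morning element, CCACAC, was in 14.18% against 11.92%, and the I-box, GATAAG, in 22.7% against 22.4%. No motif contains another, and a window may hold several. The windows of all genes include genes at any level, while the morning genes had to reach 20 CPM at ZT1. No share matched for level was computed. A match is a description of the letters and not of binding.

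Shown next are the 200 bases before the RefSeq start, 5′ to 3′ on the gene's strand, for the 5 genes among the first 20 by rank whose 200-base window holds a G-box. They let the reader see where that motif lies, and the capitals mark it. LNK3 (AT3G12320) is on the plus strand at chr3:3923315-3923514. LHCB2.3, an antenna protein of photosystem II, is on the plus strand at chr3:10255706-10255905. GolS1, a galactinol synthase, is on the minus strand at chr2:19370479-19370678. MIPS2, a myo-inositol phosphate synthase, is on the minus strand at chr2:9454301-9454500. BETA-OHASE_2, a beta-carotene hydroxylase, is on the minus strand at chr5:21337127-21337326. All positions are in TAIR10.1.
LNK3: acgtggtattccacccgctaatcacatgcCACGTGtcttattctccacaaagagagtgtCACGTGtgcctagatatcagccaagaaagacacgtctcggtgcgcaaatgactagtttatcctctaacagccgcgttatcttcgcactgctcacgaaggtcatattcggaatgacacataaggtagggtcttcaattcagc
LHCB2.3: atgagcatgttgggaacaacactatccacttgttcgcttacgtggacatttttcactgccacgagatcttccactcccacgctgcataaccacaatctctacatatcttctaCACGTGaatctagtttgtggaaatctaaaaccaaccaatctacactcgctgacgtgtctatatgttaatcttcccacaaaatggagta
GolS1: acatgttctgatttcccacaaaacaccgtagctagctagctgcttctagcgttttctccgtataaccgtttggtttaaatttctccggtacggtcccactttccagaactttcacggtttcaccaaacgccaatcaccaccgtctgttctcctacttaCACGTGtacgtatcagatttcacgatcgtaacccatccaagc
MIPS2: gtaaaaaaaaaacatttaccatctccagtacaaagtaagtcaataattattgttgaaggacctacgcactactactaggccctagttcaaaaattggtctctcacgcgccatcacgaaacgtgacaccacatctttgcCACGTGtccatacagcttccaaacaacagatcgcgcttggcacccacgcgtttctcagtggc
BETA-OHASE_2: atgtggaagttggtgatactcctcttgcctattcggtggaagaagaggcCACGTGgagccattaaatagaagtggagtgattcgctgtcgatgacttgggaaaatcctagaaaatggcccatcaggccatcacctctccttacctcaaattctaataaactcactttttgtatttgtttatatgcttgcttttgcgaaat
LNK3 holds the motif at 2 places, which start 171 and 141 bases before its annotated start, and the other 4 hold it once.

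In the libraries that chose them, the 145 genes had a median ZT1 level of 91.7 CPM, from 20.2 CPM to 6234 CPM for CAB2, a chlorophyll a/b-binding protein. The ranking ratio had a median of 1.76 (log2) and a maximum of 4.94 for LNK3. At the lower edge, SIGA, a plastid sigma factor, was the last gene taken with 290.0 CPM at ZT1 against 118 CPM at its next time (1.286), and AT3G05900 was the first not taken (1.284). The next-highest time was ZT16 for 69 genes, ZT8 for 60 and ZT12 for 16. By chromosome, 37, 26, 28, 14 and 36 of the matched genes lay on chromosomes 1, 2, 3, 4 and 5. Together the 145 genes gave 4.52% of all counts in each ZT1 library of well-watered wild type, 1.02 and 1.14% at ZT8, 0.539 and 0.567% at ZT12, and 0.672 and 0.687% at ZT16. Of the clock genes left out, CCA1 and LHY ranked 1 and 2, with CCA1 at 387 CPM at ZT1 against 2.41 CPM at ZT8 and LHY at 491 CPM against 11.4 CPM at ZT16.

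The morning maximum was also measured in the 5 series of 8 libraries that did not enter the choice. A gene was called higher at ZT1 when its contrasts with ZT8, ZT12 and ZT16 were all positive with an adjusted p under 0.05 in edgeR's quasi-likelihood test. In wild type under drought 136 of the 145 genes were called, where the same rule called 8.86% of all 19037 genes tested. In gi-2 it called 131 genes with normal watering (all genes 5.39%) and 133 under drought (7.36%). In aba1-6 it called 138 genes with normal watering (7.24%) and 139 under drought (9.31%). A total of 125 genes were called in all 5 series, 10 in 4 of them, and 4 genes in none.

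**Figure D1:**
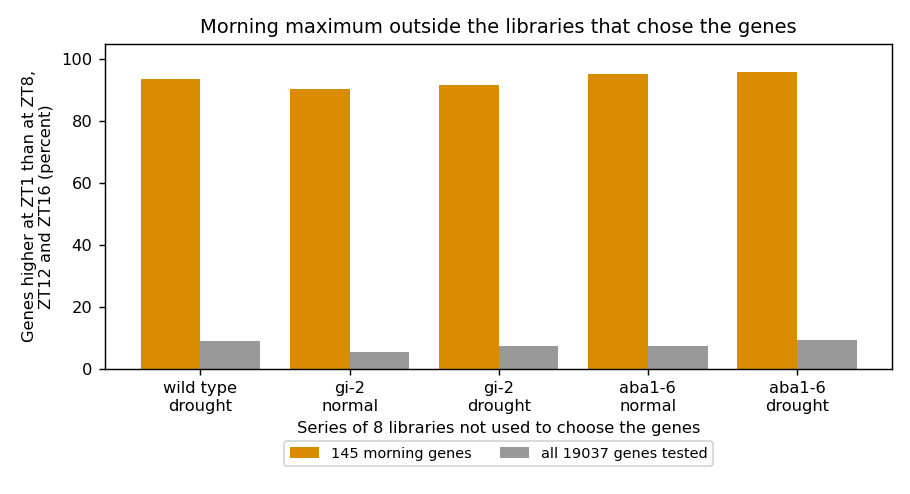
Percent of genes called higher at ZT1 than at each of the other 3 times, in the 5 series not used to choose the genes. Orange bars are the 145 morning genes (90.3 to 95.9%) and grey bars all 19037 genes tested (5.39 to 9.31%).

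The size of the ZT1 maximum was compared next. Under drought, the median ZT1 to ZT12 difference over the 145 genes was 2.69 (log2) in wild type, 2.70 in aba1-6 and 1.70 in gi-2. With normal watering it was 2.57 in aba1-6 and 1.66 in gi-2. Against ZT16 the medians under drought were 2.39 in wild type, 2.26 in aba1-6 and 1.57 in gi-2, and over all genes every one of these medians lay within 0.03 of 0. The share of library counts taken by the 145 genes under drought ran from 4.39 and 4.67% at ZT1 to 0.528 and 0.596% at ZT12 in wild type. In gi-2 it ran from 4.10% in each ZT1 library to 0.982 and 1.02% at ZT12, so the gi-2 share was lower at ZT1 and higher at ZT12, with no overlap. In aba1-6 the shares were 4.23 and 4.39% at ZT1 and 0.575 and 0.590% at ZT12, which overlap those of wild type at both times. These shares weigh the most abundant genes most. At ZT1 in well-watered wild type the most abundant were CAB2 (6234 CPM), GUN5 (3873 CPM) and LHCB2.1 (3440 CPM).

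**Figure D2:**
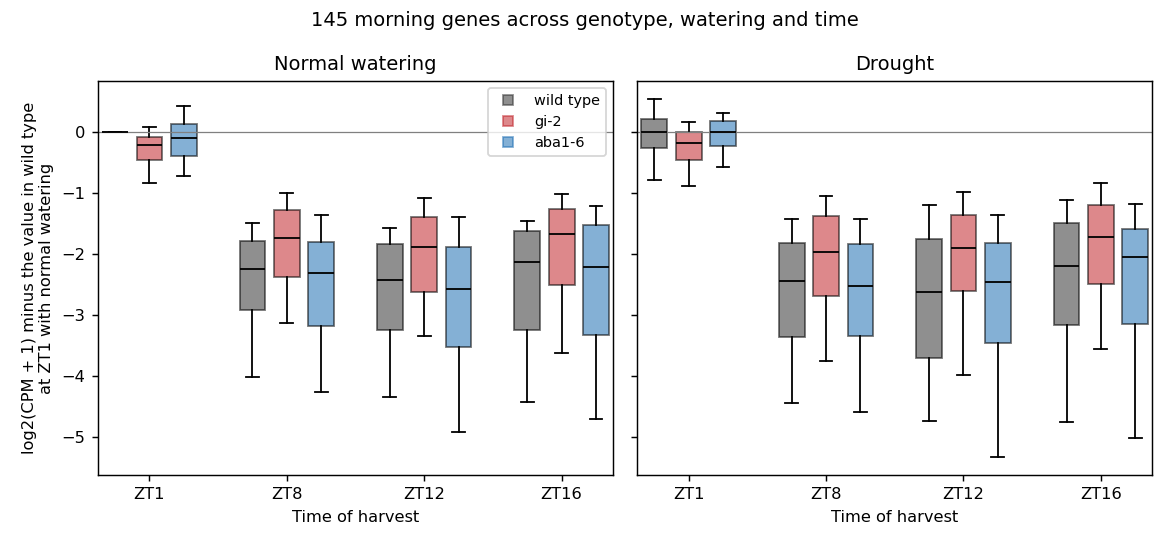
Levels of the 145 morning genes as log2(CPM + 1) minus the value in well-watered wild type at ZT1, which is 0 by construction. Boxes span the quartiles over genes of the group means, the line is the median and whiskers reach the 10th and 90th percentiles. The gi-2 medians lie below wild type at ZT1 and above it at ZT8, ZT12 and ZT16 in both watering regimes.

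Among the clock-associated members, the 4 LNK genes kept a morning maximum in every series. LNK2 (AT3G54500) stood at 656 and 875 CPM at ZT1 in well-watered wild type and at 692 and 848 CPM under drought. In gi-2 it stood at 542 and 510 CPM with normal watering and at 554 and 564 CPM under drought. The gi-2 drought libraries lay below both wild-type ones, while the well-watered wild-type libraries chose the gene and give a description only. By ZT12 under drought it was at 6.83 and 14.4 CPM in wild type, 34.3 and 26.9 CPM in gi-2, and 7.31 and 7.12 CPM in aba1-6. Under drought the gi-2 libraries were thus below wild type at ZT1, where the test did not pass, and highest at ZT12. For LNK2 the difference between gi-2 and wild type under drought was -0.50 ± 0.18 (log2, SE) at ZT1 (edgeR adjusted p = 0.0893) and 1.61 ± 0.24 at ZT12 (adjusted p = 5.54e-06).

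LNK3, with the highest ranking ratio, showed this pattern at a lower level. Under drought at ZT1 it was at 98.3 and 108 CPM in wild type, 64.1 and 58.5 CPM in gi-2, and 112 and 107 CPM in aba1-6. At ZT16 it was at 0.432 and 0 CPM in wild type against 4.56 and 7.85 CPM in gi-2, and 1.73 and 0.483 CPM in aba1-6. Both ends of the daily range were thus drawn in for gi-2. The wild-type levels at ZT16 lay near 0 CPM, so the size of any LNK3 fold that uses them is uncertain. LNK3 was lower in gi-2 than in wild type under drought at ZT1, with a difference of -0.79 ± 0.20 (log2, SE; edgeR adjusted p = 0.00822) and higher at ZT16, with a difference of 4.17 ± 0.59 (adjusted p = 3.15e-06).

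LNK4 (AT5G06980) and LNK1 (AT5G64170) passed the comparison of gi-2 with wild type in later harvests but not at ZT1. LNK4 was at 99.0 and 113 CPM in wild type and at 103 and 97.97 CPM in gi-2 at ZT1 under drought, so the groups overlapped. At ZT16 it was at 0.540 and 1.75 CPM in wild type and at 9.25 and 9.32 CPM in gi-2, a difference of 3.62 ± 0.39 (log2, SE; edgeR adjusted p = 3.79e-09). These wild-type levels lay near 0 CPM, so the size of any LNK4 fold that uses them is uncertain. LNK1 at ZT16 was at 19.98 and 17.03 CPM in wild type and at 70.5 and 71.0 CPM in gi-2, a difference of 1.99 ± 0.14 (adjusted p = 2.41e-14). CDF3, a DOF factor of the family that GIGANTEA helps to remove, was lower in gi-2 at ZT1, with a difference of -0.68 ± 0.13 (adjusted p = 0.00028) and higher at ZT16 by 1.30 ± 0.16 (adjusted p = 1.79e-07).

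Of 22 tested clock genes other than the CCA1, LHY, RVE and PRR genes, 7 were higher at ZT1 than at each other time in wild type under drought, among them the 5 members (all genes 8.86%). In the same list, 11 genes were higher in gi-2 than in wild type at ZT16 under drought, again with all 5 members among them (all genes 4.79%). In aba1-6 under drought, 3 of the list were lower than wild type at ZT8, all 3 of them members (all genes 2.77%). At ZT12 3 were lower, 2 of them members (all genes 2.33%), and 0 were higher at either time.

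The B-box factors, zinc-finger regulators of light responses, had 6 members in a list of 19 tested genes, and BBX16 (AT1G73870) outside that list. COL2, a CONSTANS-like factor, was at 134 and 155 CPM in wild type, 104 and 113 CPM in gi-2 and 142 and 146 CPM in aba1-6 at ZT1 under drought. By ZT8 it was at 4.10 and 8.35 CPM in wild type and at 8.03 and 6.85 CPM in gi-2, and the groups overlapped. BBX28 (AT4G27310) was at 0.854 and 0.321 CPM in wild type and 7.05 and 7.62 CPM in gi-2 at ZT12 under drought, and at 0.479 and 0.574 CPM in aba1-6. For BBX28 the difference of gi-2 from wild type was 3.85 ± 0.45 (log2, SE; edgeR adjusted p = 1.87e-08) at ZT12 and -0.26 ± 0.19 (adjusted p = 0.501) at ZT1. The wild-type levels of BBX28 at ZT12 lay near 0 CPM, so the size of its ZT12 difference is uncertain. BBX16 was higher in gi-2 at ZT8, ZT12 and ZT16, by 1.28, 1.97 and 2.14. In the list, 14 of 19 genes were higher at ZT1 than at each other time in wild type under drought, 11 in gi-2 and 14 in aba1-6 (all genes 8.86, 7.36 and 9.31%).

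PIF5 (PIL6) and PIF7, bHLH factors that respond to phytochrome, were both members. PIF5 was at 213 and 195 CPM in wild type, 188 and 186 CPM in gi-2 and 202 and 196 CPM in aba1-6 at ZT1 under drought. Its levels at ZT16 were 18.8 and 19.6 CPM, 55.1 and 65.6 CPM, and 17.7 and 19.8 CPM. PIF5 was higher in gi-2 at ZT8, ZT12 and ZT16, and at ZT16 the difference was 1.76 ± 0.14 (log2, SE; edgeR adjusted p = 6.53e-13), against -0.17 ± 0.11 at ZT1 (adjusted p = 0.43). PIF7 differed from wild type by 0.36 ± 0.18 at ZT16 (edgeR adjusted p = 0.246) and passed at none of the 4 harvests.

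**Figure D3:**
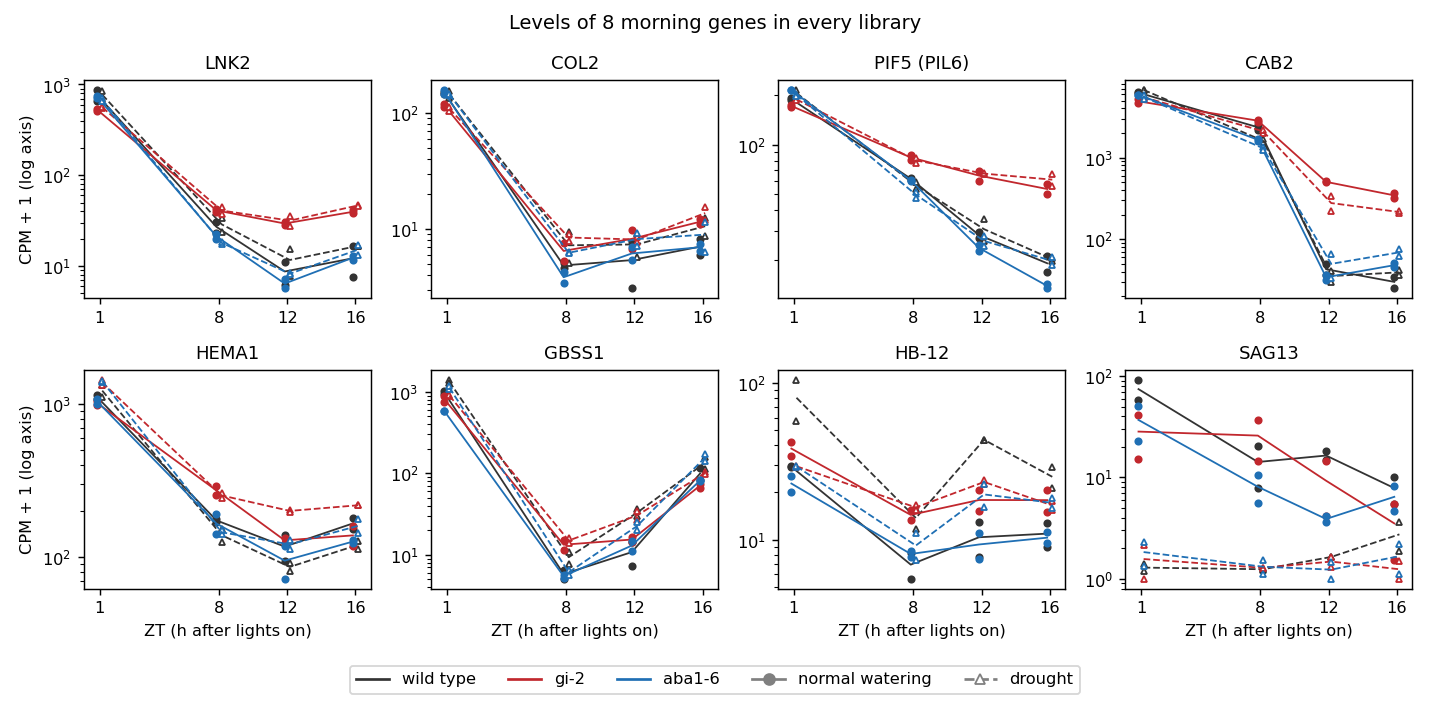
CPM + 1 on a log axis against ZT for 8 morning genes. Points are the 2 libraries of each group, lines join group means, colours are genotypes, and filled circles with solid lines (normal watering) or open triangles with dashed lines (drought) mark the regime. LNK2, PIF5 and CAB2 show the gi-2 lines above the others at ZT12 and ZT16, HB-12 stands highest in wild type under drought at ZT1, and SAG13 lies near 0 in all 24 libraries under drought.

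The chloroplast members include 5 genes of the tetrapyrrole pathway, the route to chlorophyll. HEMA1, the glutamyl-tRNA reductase that opens the pathway, was at 1343 and 1118 CPM in wild type, 1344 and 1440 CPM in gi-2 and 1409 and 1427 CPM in aba1-6 at ZT1 under drought. At ZT12 the values were 79.8 and 90.4 CPM, 203 and 196 CPM, and 112 and 127 CPM. GUN5, the H subunit of magnesium chelatase, was at 4400 and 3118 CPM in wild type and 4315 and 4575 CPM in gi-2 at ZT1, and at 664 and 414 CPM against 1547 and 1648 CPM at ZT16. The gi-2 libraries overlapped wild type at ZT1 for GUN5, and for both genes they lay above it later in the day. HEMA1 was higher in gi-2 at ZT12 by 1.36 ± 0.18 (log2, SE; edgeR adjusted p = 3.76e-07) and GUN5 at ZT16 by 1.67 ± 0.22 (adjusted p = 7.75e-07).

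GUN4, a partner of that chelatase, CRD1, a subunit of the cyclase, and CH1, which makes chlorophyll b, moved in the same direction. At ZT12 they were higher in gi-2 by 0.66 ± 0.15, 1.06 ± 0.16 and 0.87 ± 0.12 (log2, SE; edgeR adjusted p = 0.00133, 3.52e-06 and 1.66e-06). Of the 17 tested genes in the tetrapyrrole list, 9 were higher in gi-2 than in wild type at ZT12 under drought, and all 5 members in the list were among them (all genes 6.89%). Its counts of genes higher at ZT1 than at each other time were 5 in wild type, 5 in gi-2 and 5 in aba1-6 under drought, and these were the 5 members.

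The antenna members CAB2, LHCB2.1, LHCB2.2 and LHCB2.3 have close copies that can share reads, so single values are uncertain. CAB2 was at 6794 and 6696 CPM in wild type, 5594 and 5380 CPM in gi-2 and 5771 and 5282 CPM in aba1-6 at ZT1 under drought. At ZT12 it was at 40.1 and 28.4 CPM in wild type, 334 and 217 CPM in gi-2 and 64.8 and 32.7 CPM in aba1-6. The gi-2 libraries stood several-fold above all others at ZT12, and with normal watering they were at 495 and 510 CPM against 48.4 and 35.1 CPM in wild type. In the drought comparison CAB2 was higher in gi-2 by 3.14 ± 0.23 (log2, SE; edgeR adjusted p = 2.59e-13) at ZT12 and had a difference of -0.34 ± 0.19 (adjusted p = 0.364) at ZT1. LHCB2.1 and LHCB2.3 were higher in gi-2 at ZT12 by 3.05 ± 0.23 and 1.66 ± 0.30 (adjusted p = 2.25e-12 and 0.000182).

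GLK2, a factor for chloroplast genes, and SIG5 (SIGE), a sigma factor of the plastid polymerase, were members too. SIG5 was at 195 and 242 CPM in wild type and 141 and 168 CPM in gi-2 at ZT1 under drought, and at 8.97 and 8.13 CPM against 24.6 and 27.3 CPM at ZT8. The order of the genotypes was thus turned between ZT1 and ZT8. SIG5 was higher in gi-2 at ZT8 by 1.64 ± 0.23 (log2, SE; edgeR adjusted p = 1.07e-05), and its ZT1 difference was -0.54 ± 0.18 (adjusted p = 0.0768).

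Of the carotenoid genes, ABA1, NCED4 (CCD4, a carotenoid cleavage dioxygenase) and BETA-OHASE_2 were members. ABA1 was at 847 and 684 CPM in wild type, 644 and 636 CPM in gi-2 and 624.5 and 609 CPM in aba1-6 at ZT1 under drought. In aba1-6, mutated in this gene, its level over the 16 libraries ran from 69.9 to 624.5 CPM, so the transcript was present and had the same morning maximum. NCED4 was at 28.4 and 22.3 CPM in wild type, 189.6 and 165 CPM in gi-2 and 42.7 and 39.3 CPM in aba1-6 at ZT12 under drought. NCED4 was higher in gi-2 by 2.94 ± 0.21 (log2, SE; edgeR adjusted p = 3.19e-13) there and by 2.46 ± 0.20 at ZT16 (adjusted p = 1.42e-11). BETA-OHASE_2 did not pass in any of these comparisons, with 92.7 and 75.4 CPM in wild type and 84.7 and 76.8 CPM in gi-2 at ZT1.

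Counted over all 145 genes under drought, 3 were higher and 22 lower in gi-2 than in wild type at ZT1, where 3% of all genes were higher and 2.91% lower. At ZT8 the counts were 59 higher and 2 lower (all genes 3.36 and 1.99%). At ZT12 they were 67 and 7 (6.89 and 4.59%), and at ZT16 64 and 3 (4.79 and 3.25%). The median difference moved from -0.24 (log2) at ZT1 to 0.57, 0.70 and 0.65 at the later times, while that of all genes lay between -0.02 and 0. Because wild type chose the genes, these all-gene shares and medians are not a like baseline. A total of 45 genes were higher in gi-2 at all 3 later times, 18 at 2, 19 at 1 and 63 at none. Without gi-2 drought ZT1 replicate 1 or 2 the 22 lower calls were 13, without wild type drought ZT1 replicate 2 the 3 higher calls were 1, and without wild type drought ZT8 replicate 2 the 59 were 38. Fewer lower calls were left without a library at later times: 1 in place of 2 at ZT8 (wild type replicate 2 or gi-2 replicate 1), 4 in place of 7 at ZT12 (gi-2 replicate 2), and 1 in place of 3 at ZT16 (wild type replicate 2 or gi-2 replicate 1). The 22 became 37 with a replicate block and 34 with no filter on low counts. In a fit of the compared libraries alone, the 22 became 37 and the 64 became 32.

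With normal watering the same comparison shares the libraries that chose the genes and is given as a description. The median log2(CPM + 1) difference of gi-2 from wild type was -0.20 in the ZT1 harvest, 0.55 at ZT8, 0.63 at ZT12 and then 0.49 at ZT16. At ZT1 119 of the 145 genes lay below 0, and at ZT8 132 lay above it.

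**Figure D4:**
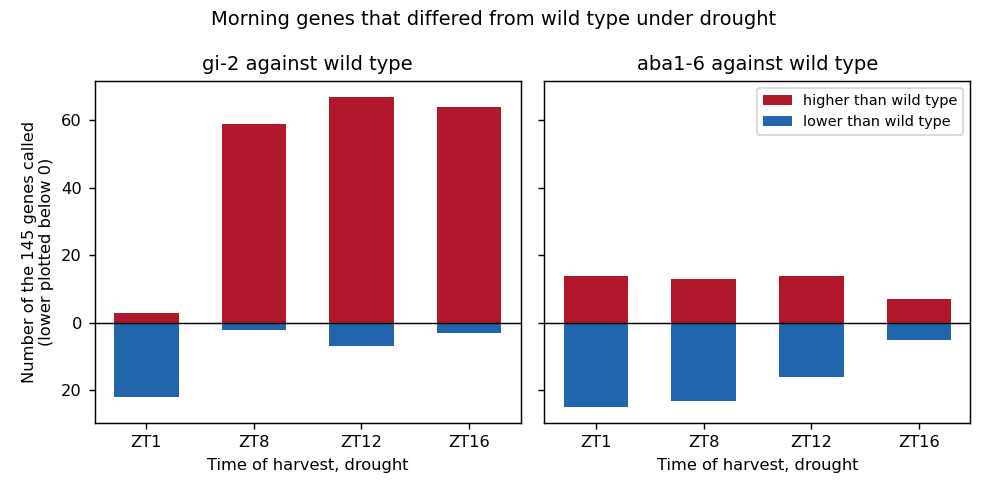
Number of the 145 morning genes higher (red, above 0) or lower (blue, drawn below 0) than wild type under drought at each harvest, for gi-2 and aba1-6. In gi-2 the bars run from 3 higher and 22 lower at ZT1 to 67 higher and 7 lower at ZT12, and in aba1-6 between 7 and 14 genes were higher and between 5 and 25 lower. Both mutants are compared with the same 8 wild-type libraries.

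The ZT1 rise was then compared directly. It is the log2 level at ZT1 minus the mean of the log2 levels at ZT8, ZT12 and ZT16, and the test is the difference of this rise between gi-2 and wild type under drought. It was smaller in gi-2 for 84 of the 145 genes and larger for 0, where 3.06% of all genes were smaller and 1.46% larger. Those 0 come from edgeR, which also gave 0 at an unadjusted p under 0.05, while DESeq2 gave 1. The median difference was -0.89 (log2), and 135 of the 145 estimates lay below 0. The 145 genes were chosen for a large ZT1 maximum in wild type, so genes with a large rise in a mutant alone could not enter. The choice therefore favours smaller over larger rises in either mutant, and the all-gene shares are not a like baseline. Of the 84 genes, 70 were higher in gi-2 at 1 or more later times, 13 were lower at ZT1, 5 of them did both, and 6 did neither. Leaving out single libraries gave 67 to 87 such genes.

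Smaller rises were found across the groups described above. They included the 5 clock members of the list (8 of its 22 tested genes were smaller and 1 larger) and 5 of the 6 B-box members (11 of 19 smaller and 1 larger). All 5 tetrapyrrole members in the list were included (6 of 17 smaller), and 2 of the 3 carotenoid members (4 of 15 smaller and 1 larger). The rise difference, gi-2 minus wild type, was -3.15 ± 0.33 (log2, SE; edgeR adjusted p = 1.1e-08) for LNK3, -2.97 ± 0.25 (adjusted p = 2.15e-11) for LNK4 and -3.02 ± 0.32 for AT3G24460 (adjusted p = 5.63e-09). PIF7, with no single harvest called, was among the 84 (-0.73 ± 0.18, adjusted p = 0.00786), as was COL2 (-0.86 ± 0.24, adjusted p = 0.0248).

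In other lists, where the share over all genes was 3.06% smaller and 1.46% larger, the rise was smaller in gi-2 for 5 of 15 PIF and growth genes, 2 of 15 early light-induced genes and 7 of 12 genes of sulfate and nitrate assimilation. It was smaller for 1 gene each of 17 of starch metabolism and carbon starvation and of 15 of auxin response, and a single gene is near that share. The rise was larger in gi-2 for 4 of 14 genes of flavonoid and anthocyanin synthesis, 4 of 17 of the starch list and 2 of 16 of cold and early dehydration response. Of 11 heat shock genes, 5 were higher at ZT1 than at each other time in wild type under drought, 6 and 4 in gi-2 and 3 and 3 in aba1-6 (normal watering, then drought), against the all-gene shares of 5.39 to 9.31% given above.

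CIPK20, a CBL-interacting protein kinase, was at 0 CPM in both wild-type libraries under drought at ZT16, so no fitted fold is given. It was at 65.4 and 74.3 CPM in wild type and 83.3 and 76.7 CPM in gi-2 at ZT1, and at 13.9 and 19.4 CPM against 30.9 and 34.8 CPM at ZT8. At ZT12 the values were 0.427 and 1.28 CPM against 9.78 and 11.6 CPM, and at ZT16 gi-2 stood at 6.73 and 7.20 CPM. CIPK20 was thus at or near 0 in the late harvests of wild type and measured in all of those of gi-2. aba1-6 was also near 0 at ZT16, with 0.203 and 0 CPM. At ZT8 its group mean lay below that of wild type, with a log2(CPM + 1) difference of -1.15 under drought.

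AT3G24460 differed in another way, at ZT1 and not later. It was at 37.1 and 45.7 CPM in wild type, 7.01 and 6.06 CPM in gi-2 and 21.3 and 25.2 CPM in aba1-6 at ZT1 under drought. In gi-2 under drought its highest level was at ZT16, with 10.6 and 13.2 CPM. It was lower in gi-2 at ZT1, with a difference of -2.69 ± 0.26 (log2, SE; edgeR adjusted p = 1.26e-09). Next in size among the genes lower in gi-2 at ZT1 were HSP70 (-1.78 ± 0.32, adjusted p = 0.000594), the homeobox factor HB-12 (-1.51 ± 0.22, adjusted p = 6.18e-06), the thionin THI2.2 (-1.45 ± 0.20, adjusted p = 2.55e-06) and MGL, a methionine gamma-lyase (-1.31 ± 0.39, adjusted p = 0.0465). The MGL call was lost when any of the 4 compared libraries was left out. The 3 higher genes were AT3G50560 (1.32 ± 0.24, adjusted p = 0.000177), AT5G62280 (1.26 ± 0.25, adjusted p = 0.000594) and AT5G44530 (0.41 ± 0.13, adjusted p = 0.0433). AT5G44530 lost its call without any of the same 4 libraries, and AT5G62280 without wild type drought ZT1 replicate 2.

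The plasma membrane aquaporins PIP1A, PIP2A, PIP2B and RD28 were members and did not share 1 pattern. PIP2B and RD28 lie close together on chromosome 2 (15613368-15615022 and 15617635-15619155). If they share reads, they are not separate observations. PIP1A was at 490.5 and 484 CPM in wild type and 393 and 343 CPM in gi-2 at ZT1 under drought, and at 52.1 and 40.8 CPM against 158 and 143 CPM at ZT12. PIP1A and PIP2A were higher in gi-2 at ZT12 by 1.82 ± 0.22 and 1.08 ± 0.15 (log2, SE; edgeR adjusted p = 1.77e-07 and 4.99e-07). RD28 was lower in gi-2 at ZT1, with a difference of -1.27 ± 0.21 (adjusted p = 8.11e-05), as was PIP2B with -0.65 ± 0.17 (adjusted p = 0.0165), and neither passed at ZT8 or ZT12. RD28 was also lower in gi-2 at ZT16 (-1.0 ± 0.29, edgeR adjusted p = 0.0255). That call was lost without wild type replicate 2 or either gi-2 library of that harvest, and with the compared libraries alone. In aba1-6 under drought, RD28 was higher than wild type at ZT8 by 1.75 ± 0.26 (edgeR adjusted p = 2e-05). The log2(CPM + 1) difference of the same group means at ZT8 was 1.64 for PIP2B, 0.505 for PIP1A and 0.329 for PIP2A.

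In aba1-6 under drought, 14 of the 145 genes were higher and 25 lower than wild type at ZT1, where 4.59% and 5.24% of all genes were. The median difference was -0.07 (log2). At ZT8 13 were higher and 23 lower (all genes 2.31 and 2.77%), at ZT12 14 and 16 (2.42 and 2.33%), and at ZT16 7 and 5 (1.76 and 2.02%). Without wild type drought ZT1 replicate 2, the 14 at ZT1 were 7. At ZT8 the counts were 8 higher without wild type replicate 2 or aba1-6 replicate 1, and 13 lower without the latter. At ZT12 they were 9 higher without wild type replicate 2 or aba1-6 replicate 2. At ZT16, leaving out wild type replicate 1 gave 14 and 9, wild type replicate 2 gave 3 and 2, aba1-6 replicate 1 gave 2 and 1, and aba1-6 replicate 2 gave 2 lower. The ZT1 rise was smaller in aba1-6 than in wild type for 6 genes and larger for 1 (0.898 and 0.809% of all genes), with a median difference of -0.03. Those 6 were 3 without wild type drought ZT1 replicate 2 or aba1-6 drought ZT1 replicate 1, and 1 without aba1-6 drought ZT1 replicate 2. The gene with a larger rise was RPT2, a phototropism signalling protein, and this call (0.52 ± 0.14, edgeR adjusted p = 0.0465) was lost without 13 libraries, each left out alone, of which 12 are among the 16 compared.

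Among the genes lower in aba1-6 at ZT1 under drought, HB-12 was at 55.9 and 103 CPM in wild type and at 28.1 and 28.5 CPM in aba1-6, with 28.3 and 28.5 CPM in gi-2. MGL was at 88.8 and 109 CPM in wild type, 21.8 and 19.0 CPM in aba1-6 and 40.4 and 41.3 CPM in gi-2. KCS2, an enzyme of very-long-chain fatty acid synthesis, was at 115 and 170.0 CPM in wild type, 51.9 and 55.5 CPM in aba1-6 and 79.6 and 81.2 CPM in gi-2. For all 3 genes both mutants lay below wild type with no overlap, and the comparisons share the wild-type libraries. The aba1-6 differences were -1.57 ± 0.22 for HB-12, -2.37 ± 0.41 for MGL and -1.49 ± 0.21 for KCS2 (log2, SE; edgeR adjusted p = 1.48e-06, 0.00024 and 2.77e-06). AT3G57020 was lower in aba1-6 at all 4 harvests, from 149 and 170.5 CPM in wild type to 54.2 and 56.0 CPM in aba1-6 at ZT1 (-1.63 ± 0.14, adjusted p = 2.07e-11). RPT2 was higher in aba1-6 at ZT1, with 1025 and 1004 CPM against 634 and 605 CPM (0.62 ± 0.12, adjusted p = 0.000399).

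None of the 145 genes stood in the list of ABA signalling and response genes. That list is short and not a full set, so this does not show whether members respond to ABA. In that list 12 of 18 tested genes were lower in gi-2 than in wild type at ZT1 under drought (all genes 2.91%), and 16 of 18 in aba1-6 (all genes 5.24%).

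With normal watering the mutants were compared with each other, since the wild-type libraries chose the genes. At ZT1 16 genes were higher and 32 lower in gi-2 than in aba1-6, where 5.79 and 5.12% of all genes were. The 16 were 9 without aba1-6 normal ZT1 replicate 2, and the 32 were 21 without gi-2 normal ZT1 replicate 2. AT1G48100 was at 82.4 and 89.4 CPM in gi-2 and 19.3 and 19.2 CPM in aba1-6 (2.19 ± 0.18, log2, SE; edgeR adjusted p = 3.23e-12). RAV2, a B3-domain factor, was lower in gi-2 (-1.92 ± 0.22, adjusted p = 1.86e-08). Of the 60 genes with ZT8 as their next-highest time, 2 were higher and 23 lower, and of the 69 with ZT16 13 were higher and 9 lower. The next-highest time was read from the libraries that chose the genes, so this split is a description. No all-gene share split in the same way was computed.

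The drought effect at ZT1 could be tested in the mutants only. In gi-2 it was called for 0 higher and 1 lower gene of the 145 (all genes 0.289 and 0.468%). Those counts come from edgeR, which gave 11 higher and 10 lower at an unadjusted p under 0.05, while DESeq2 gave 0 and 2. The 1 lower gene was 0 without gi-2 normal ZT1 replicate 1, without gi-2 drought ZT1 replicate 1 or without its replicate 2, and 1 gene was higher without gi-2 normal ZT1 replicate 1. In aba1-6 it was called for 8 higher and 3 lower genes (all genes 0.961 and 0.925%). The 8 were 3 without aba1-6 normal ZT1 replicate 1, 5 without aba1-6 drought ZT1 replicate 1 and 3 without its replicate 2. The 3 lower were 1 without aba1-6 normal ZT1 replicate 1 or aba1-6 drought ZT1 replicate 2. With only the compared libraries, the fit called 11 and 5 genes in gi-2 and 23 and 7 in aba1-6. The median effect over the 145 genes was 0.04 in gi-2 and 0.05 in aba1-6.

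GBSS1 (AT1G32900), the granule-bound starch synthase, was among the genes higher under drought in aba1-6. It was at 579 and 583 CPM with normal watering and at 1085 and 1163 CPM under drought, a difference of 0.96 ± 0.18 (log2, SE; edgeR adjusted p = 0.00178). In wild type it was at 1018 and 943 CPM and then 1386 and 1275 CPM, and in gi-2 at 742 and 882 CPM and then 888 and 905 CPM. KCS2 rose in aba1-6 from 21.2 and 12.9 CPM to 51.9 and 55.5 CPM (1.66 ± 0.23, adjusted p = 2.48e-05), AT1G48100 from 19.3 and 19.2 CPM to 46.4 and 46.5 CPM (1.28 ± 0.18, adjusted p = 1.3e-05). LEA3 (AT1G02820), a late embryogenesis abundant protein, rose by 1.24 ± 0.27 (adjusted p = 0.00699). GBSS1 and AT3G24460 lost the call without aba1-6 normal ZT1 replicate 1 or aba1-6 drought ZT1 replicate 2, and LEA3 without any of the 4 libraries.

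In wild type the drought to normal comparison at ZT1 is a description. The median log2(CPM + 1) difference was 0.01 over the 145 genes, with 77 above and 68 below 0. Only 14 genes differed by more than 1 in either direction. The 5 higher under drought were MGL (1.72), KCS2 (1.69), HB-12 (1.46), MIPS2 (1.13) and AT1G48100 (1.05). MIPS2 went from 370 and 282 CPM to 708 and 722 CPM in wild type. In gi-2 it was at 378 and 406 CPM and then at 359 and 360.4 CPM.

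The 9 genes lower under drought were NIT2 (-7.01), SAG13 (-5.85), ELI3-2 (-5.72), AT2G45220 (-4.50), UGT74F2 (-2.48), ASN1 (-2.44), AT4G37520 (-1.83), AT3G50560 (-1.35) and DIN2, which was at 0 CPM in both drought libraries, so that no fold is given. SAG13 is a senescence-associated gene, NIT2 a nitrilase, DIN2 a dark-inducible beta-glucosidase, UGT74F2 a glucosyltransferase of salicylic acid and ASN1 an asparagine synthetase. SAG13 was at 90.05 and 56.7 CPM in wild type with normal watering at ZT1 and at 0.191 and 0.385 CPM under drought. In gi-2 it was at 40.6 and 14.1 CPM and then 1.13 and 0 CPM, and in aba1-6 at 50.05 and 21.8 CPM and then 1.32 and 0.343 CPM. All drought libraries at ZT1 were thus near 0 and all well-watered ones above them in each genotype.

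This set also differed within the wild-type replicates that chose it. At ZT1 NIT2 was at 412 and 92.05 CPM, DIN2 at 52.1 and 9.46 CPM, ELI3-2 at 81.2 and 26.9 CPM, UGT74F2 at 83.8 and 28.0 CPM and ASN1 at 109 and 41.0 CPM. In each, replicate 1 was the higher. The ratio of the larger to the smaller replicate was at least 2 for these 5 genes and for no other of the 145, and its median was 1.13. NIT2, DIN2, ELI3-2 and AT2G45220 are the 4 genes called higher at ZT1 in none of the 5 other series. SAG13 and MGL were called in 1 series, UGT74F2 and AT4G37520 in 2, and ASN1 and AT3G24460 in 3. Without replicate 1 of well-watered wild type at ZT1 the rule kept 128 of the 145 genes, and without replicate 2 it kept 125. Without replicate 1, DIN2 was at 9.46 CPM, below the minimum of 20 CPM, so it was not kept. In replicate 2 alone ELI3-2 was at 26.9 CPM, against a mean of 16.9 CPM at ZT12. UGT74F2 was there at 28.0 CPM, against a mean of 13.9 CPM at ZT8. Whether the other genes named here were among those kept was not tested.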

How the data were processed

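RNA-seq was measured in 48 libraries. Per the labels' protocols, poly(A) libraries were made with a TruSeq kit from aerial parts. The submitters' processing notes name the genome build TAIR10 and the tools RSEM, Bowtie2 and edgeR. Their settings, their versions and the use of strand in counting were not given in the sources used here. As deposited by the authors, the data are 1 table of expected counts (estimated counts, 98.6% of them whole). Among whole counts of at most 10, 66.8 to 80.2% per library were even, so 1 count may not stand for 1 sequenced fragment, and no counting interval is printed. Each line of the deposited table ends in an extra tab after its last column, which holds expected counts like the others. No column of per-sample values was left unused.

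The members and the 13 gene lists were chosen with earlier results of these data known. CPM levels use library totals. Counts were rounded and, in R 4.3.3 with edgeR 4.0.16, filtered with filterByExpr (19037 genes and all 145 members left) and scaled by TMM (factors 0.862 to 1.135). One model with 24 group means was fitted to all libraries with robust quasi-likelihood (24 residual degrees of freedom, biological coefficient of variation 12.1%). Contrasts were called at a Benjamini-Hochberg adjusted p under 0.05 over all genes. Where both libraries of a group held 0, no fold is printed. The script was tested on simulated data. Named genes are the first 20 by rank, list members, the 5 called genes with the largest change in each direction, and exceptions, and other genes named (the aquaporins and GLK2 among them) were chosen after their values were seen. LNK, BBX and other names come from the TAIR10.1 annotation. The listed symbols CDF1, PHR1, BAM1, SEN1 and RAB18 each name more than one locus there, so the gene counted under them is uncertain. One listed name that matched a different gene (CAO) was replaced by CH1 after the values were seen. The 6 comparisons of each mutant with wild type at ZT8, ZT12 and ZT16 were added after seeing the data. DESeq2 1.42.0, other scalings and filters, a replicate block, fewer libraries and other forms of the rule were tried. P-values measure the spread between 2 pools of seedlings a group. Genes with close copies, or that overlap, can share reads.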

Additional observations from a re-analysis of the deposited data

Results flagged for a closer look

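Differences between genotypes in the ZT1 rise under drought were tested directly and are listed here without an explanation. The rise was smaller in gi-2 than in wild type for 84 of the 145 genes, smaller in aba1-6 for 6 and larger in aba1-6 for 1. Among the 84, the difference was -3.15 (log2) for LNK3 (AT3G12320), -3.02 for AT3G24460 and -2.97 for LNK4 (AT5G06980). In aba1-6 it was 0.52 for RPT2, -0.982 for AT1G48100, -0.979 for PIP2B and -0.975 for MIPS2. It was -0.89 for AT5G15950 and -0.84 for CIPK5. The RPT2, CIPK5 and MIPS2 calls were each lost under 4 or more other settings. The AT1G48100 and PIP2B calls were lost without wild type drought ZT1 replicate 1 or aba1-6 drought ZT1 replicate 2, with adjusted p of up to 0.0593 and 0.109 in edgeR's quasi-likelihood test. Both mutants were compared with the same wild-type libraries. The genes were chosen by their ZT1 maximum in wild type, which favours smaller over larger rises in a mutant.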

How the results depend on the processing

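Of 1458 values of named genes under other settings, 0 changed direction. The 31 counts kept within 1.5 times under DESeq2's size factors and under library totals, although library totals moved the median of all genes by up to -0.252 (log2, ZT1 minus ZT12, wild type under drought) and by 0.135 for the gi-2 rise difference. In the following, counts are higher then lower genes and the cause of each move was not tested. With no filter on low counts the drought effect was 5 and 10 in gi-2 and 22 and 9 in aba1-6. The same setting gave 8 and 34 for gi-2 minus wild type at ZT1, 1 larger rise in gi-2, 2 larger and 14 smaller rises in aba1-6, 6 lower at ZT8 and 5 lower at ZT16 in gi-2, 26 higher at ZT12 in aba1-6, and 15 and 14 at ZT16. With a filter at a mean of 5 CPM, 3 genes were lower under drought in gi-2. DESeq2 gave 2 lower under drought in gi-2, 5 higher in gi-2 at ZT1 and 1 larger rise in gi-2. With only the compared libraries the drought effect was 11 and 5 in gi-2 and 23 and 7 in aba1-6. It gave 5 and 37 for gi-2 at ZT1, 4 lower at ZT8, 32 and 1 at ZT16, 3 smaller rises in aba1-6, 3 and 8 in aba1-6 at ZT12, and 1 and 2 at ZT16. Without the 8 libraries that chose the genes, 2 rises were larger in aba1-6.

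Replicate numbers are shared between groups, but samples of 1 number did not vary together in every pair: the correlation of their deviations was over 0.1 in 23 of 28 pairs of wild-type groups (lowest 0.065, median 0.14) and in 1 of 28 in each mutant. With a replicate block the drought effect was 3 and 4 in gi-2 and 18 and 8 in aba1-6, 37 genes were lower in gi-2 at ZT1 and 5 at ZT16, 2 rises were larger in aba1-6, and 13 and 9 genes differed in aba1-6 at ZT16.

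Leaving out 1 library at a time gave, for the drought effect, 0 to 1 higher and 0 to 1 lower in gi-2, and 3 to 8 and 1 to 3 in aba1-6. For gi-2 minus wild type it gave 1 to 4 and 13 to 23 at ZT1, 38 to 56 (58 without the gi-2 library whose labels conflict) and 1 to 2 at ZT8, 4 to 7 lower at ZT12 and 1 to 3 lower at ZT16. For aba1-6 minus wild type it gave 7 to 14 higher at ZT1, 8 to 13 and 13 to 23 at ZT8, 9 to 15 higher at ZT12, and 2 to 14 and 1 to 9 at ZT16. For gi-2 minus aba1-6 it gave 9 to 16 and 21 to 31. Larger rises in aba1-6 ran from 0 to 1 and smaller ones from 1 to 8. The rule itself shared 125 to 140 of its 145 genes with the choice made without 1 of its libraries. With 2 libraries a group, small counts rest on single libraries.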
